A study of Mus musculus with 27 samples.

Results

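The genes described here make or restrain plasmin and start or sense clotting at the cell surface: Plat, Plau, Plaur, Serpine2, F3, F2r and Procr. They were taken by name from the count matrix after its Ensembl identifiers had been matched to symbols, and they are 7 of the 53379 genes in the table. All 7 had enough counts to be among the 18758 genes tested.

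RNA was sequenced from hepatic stellate cells (HSCs), the retinoid-storing pericytes of the liver sinusoid, of male Balb/c mice. The cells were sorted after liver perfusion by the UV fluorescence of their retinoids, and their RNA was taken without culture. Healthy mice (n = 4 libraries), aged 10 to 12 weeks, had received no injection. In the acute groups, mice of 10 to 12 weeks received 1 intraperitoneal injection of the hepatotoxin carbon tetrachloride (CCl4, 0.5 µL per g in mineral oil), and 3 libraries were made 24 h later, 4 at 72 h and 4 at 7 d. In the chronic groups, mice of 8 to 10 weeks at the start were injected semi-weekly for 4 weeks, and HSCs were isolated 24 h, 72 h or 14 d after the final injection (n = 4 each). All injected groups therefore share CCl4, its oil vehicle and the injection itself, none of which the healthy mice had, and the chronic mice had also aged through the course. The repeats were individual experiments, and each column of the table is 1 library.

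Plasminogen circulates as an inactive protein and is cut to plasmin, a broad protease that dissolves fibrin and cleaves matrix, by tissue-type plasminogen activator (tPA, from Plat) or urokinase (uPA, from Plau). Urokinase acts at the cell surface on its receptor uPAR (from Plaur), and serpins such as protease nexin-1 (from Serpine2, which also inhibits thrombin) hold these proteases in check. Tissue factor (from F3) is the receptor for factor VII that starts coagulation, PAR1 (from F2r) is the receptor through which thrombin signals to cells, and the endothelial protein C receptor (from Procr) presents protein C for activation. Stellate cells are known to respond to thrombin, and the balance of plasminogen activators and their inhibitors is known to bear on how scar matrix is removed.

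RefSeq promoter sequences of GRCm38.p6 were matched for Plaur, F3, F2r, Procr and Serpine2, and they were searched for motifs that these genes might share. The letters TGANTCA, the binding motif of the AP-1 transcription factors, were found on either strand within the 250 bases before the start of 4 of the 5 genes, against 6.87% of 27025 promoters of that length. The stretches below are given because they hold the motif these 4 genes share, and they show each match with its surroundings on the strand of the gene, 5′ to 3′, with the match in capitals.
Plaur: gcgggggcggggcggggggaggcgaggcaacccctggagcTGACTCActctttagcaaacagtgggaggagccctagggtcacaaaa
F3: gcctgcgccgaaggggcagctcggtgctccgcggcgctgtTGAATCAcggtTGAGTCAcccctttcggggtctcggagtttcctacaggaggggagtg
F2r: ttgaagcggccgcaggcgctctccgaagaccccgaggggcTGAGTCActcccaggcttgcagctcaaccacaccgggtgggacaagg
Procr: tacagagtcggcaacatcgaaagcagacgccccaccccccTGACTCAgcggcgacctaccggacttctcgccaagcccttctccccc
The Plaur stretch is chr7:24462374-24462460 on the plus strand, and its match starts 69 bases before the gene's start. The F3 stretch is chr3:121723351-121723448 on the plus strand, with matches 146 and 135 bases before the start. The F2r stretch is chr13:95618624-95618710 on the minus strand, with a match 204 bases before the start. The Procr stretch is chr2:155751023-155751109 on the plus strand, with a match 154 bases before the start. These distances are counted from the RefSeq starts. Those of F2r and Procr lie inside the annotated genes (chr13:95601803-95618487 and chr2:155751117-155755471), so their matches lie nearer to the annotated starts. Both stretches printed still lie before the annotated starts. The Serpine2 window held no match to TGANTCA and 6 matches to the Sp1 motif GGGCGG, which 32.9% of all promoters hold at least once. Plaur, F3 and F2r held this Sp1 motif too (3, 3 and 1 matches), and Procr did not. The Egr motif GCGNGGGCG, in 4.65% of promoters, was found in Plaur and Serpine2. The RefSeq start used for Serpine2 lies inside the annotated gene (chr1:79794197-79861180, minus strand), with the 80 bases before it at chr1:79858666-79858745. Its window therefore lies within the gene and not before its annotated start. A match is a run of letters and not a measured binding site.

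The libraries held 6.31 M to 13.1 M counts (M, mega). At chronic 14 d all 4 libraries were under 9 M, as were replicates 1 and 2 of the other 2 chronic groups, so that depth and recovery time cannot be told apart at 14 d. All 10 stellate cell markers examined, among them Lrat, Reln and Des, had counts in every library, and their summed level ranged from 13770 to 33434 CPM (counts per M counts of the library). This sum was 19650 to 33434 CPM in healthy libraries, and it was lower in every library of acute 72 h (13770 to 17301 CPM) and of chronic 24 h (13814 to 16215 CPM), where 5 of the 10 markers were called lower and 1 higher by the test described below. Whether this bears on the values of the 7 genes was not tested. RNA of other cells was present too: 12 macrophage markers summed to 178 to 731 CPM in healthy libraries and to 4172 to 10962 CPM at acute 7 d, and 10 hepatocyte markers to 426 to 2656 CPM in healthy libraries and to 58.9 to 257 CPM at acute 24 h. In such bulk samples, fewer cells of a type and less RNA per cell cannot be told apart.

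Levels below are CPM after scaling by the trimmed mean of M values (TMM), and changes are log2 fold changes from edgeR's quasi-likelihood test with their standard error (SE). A gene was called when its Benjamini-Hochberg adjusted p over all genes tested was below 0.05 and it changed more than 2-fold. Adjusted p-values below are from this test.

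**Figure D1:**
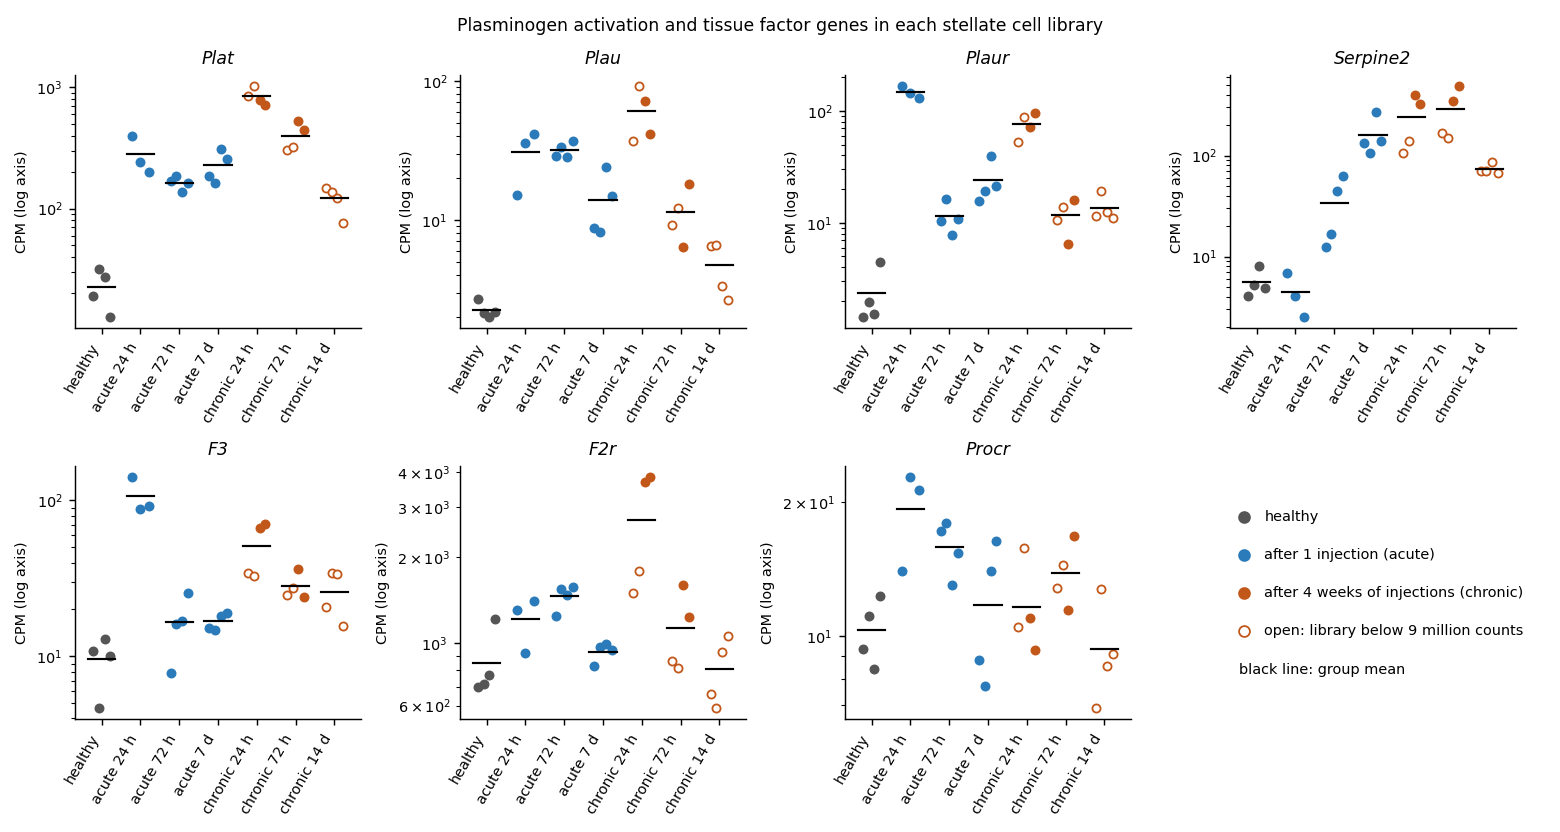
CPM (log axis) of each gene in each of the 27 libraries, by group, with 1 point per library and the group mean as a black line. Open points are the 8 libraries below 9 M counts. Plat, Plau, Plaur, F3 and Procr lay above every healthy library at acute 24 h, whereas F2r and Serpine2 did not. Serpine2 was highest at acute 7 d, chronic 24 h and chronic 72 h.

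Plat, which encodes tPA (chr8:22757727-22782844, plus strand, GRCm38, ENSMUSG00000031538), was low in healthy HSCs and higher in every injured group. Its level was 19.2, 31.8, 27.1 and 12.9 CPM in the 4 healthy libraries and 398, 241 and 199 CPM at acute 24 h. It was 168, 186, 138 and 164 CPM at acute 72 h and 186, 162, 310.0 and 256 CPM at acute 7 d. No injured library overlapped with a healthy one, and the acute groups overlapped with each other in part. After 4 weeks of CCl4, Plat stood at 849.5, 1021, 789.6 and 713 CPM at 24 h, above every library of every other group. It was 306, 322, 523 and 440.4 CPM at chronic 72 h and 149, 138, 122 and 76.6 CPM at chronic 14 d, where every library was still above the healthy range.

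The rise in Plat from healthy was 5.21 ± 0.32 (SE) on the log2 scale at chronic 24 h, or 37.0-fold (edgeR adjusted p = 8.91e-11). At acute 24 h it was 3.62 ± 0.31 (edgeR adjusted p = 1.92e-08), and the chronic value exceeded the acute one by 1.59 ± 0.31 (edgeR adjusted p = 0.00061). Plat was called at all 6 times against healthy, with the smallest rise, 2.41 ± 0.29, at chronic 14 d (edgeR adjusted p = 1.30e-05). Within the chronic course it fell by 1.08 by 72 h (SE 0.27, edgeR adjusted p = 0.00847) and by 2.80 by 14 d (SE 0.29, edgeR adjusted p = 4.98e-07). The fall to 72 h was no longer over 2-fold without chronic 24 h replicate 2 (-0.98), chronic 72 h replicate 1 (-0.98) or chronic 72 h replicate 2 (-0.97), and it was -0.62 in a fit of the libraries above 9 M counts alone (edgeR adjusted p = 0.365).

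Plau, which encodes urokinase (chr14:20836660-20843385, plus strand, ENSMUSG00000021822), was low in healthy HSCs and also rose after CCl4. It was 2.72, 2.14, 2.02 and 2.16 CPM in healthy libraries, each resting on 22 to 30 counts. The acute 24 h libraries held 15.2, 35.7 and 41.7 CPM, and at acute 72 h 28.9, 33.6, 28.3 and 36.7 CPM. Those of acute 7 d held 8.72, 8.19, 24.0 and 14.9 CPM. All 3 acute groups lay above the healthy libraries, and acute 24 h overlapped with acute 7 d. The chronic 24 h libraries held 36.7, 91.6, 71.1 and 41.5 CPM, the chronic 72 h libraries 9.19, 12.3, 6.37 and 18 CPM, and the chronic 14 d libraries 6.47, 6.57, 3.36 and 2.64 CPM, the last of which lay within the healthy range.

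The rise in Plau from healthy was 4.73 ± 0.45 at chronic 24 h (edgeR adjusted p = 3.91e-08), 3.76 ± 0.44 at acute 24 h (edgeR adjusted p = 1.06e-06) and 3.81 ± 0.43 at acute 72 h (edgeR adjusted p = 1.53e-06). By 14 d after the chronic course it was at -3.66 ± 0.42 against chronic 24 h (edgeR adjusted p = 1.93e-06), and its value against healthy was 1.07 ± 0.42 (edgeR adjusted p = 0.118). Plau differed between chronic and acute 24 h by 0.96 ± 0.41 (edgeR adjusted p = 0.0992), which did not pass. A fall from acute 24 h to acute 7 d was called at -1.14 ± 0.40 (edgeR adjusted p = 0.0266). That call was lost without acute 24 h replicate 2 (-1.02) or 3 (-0.86) and without acute 7 d replicate 1 (-0.97) or 2 (-0.96).

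Plaur, which encodes the urokinase receptor (chr7:24462484-24475968, plus strand, ENSMUSG00000046223), was highest 24 h after the first injection and not after the chronic course. Healthy libraries held 1.45, 1.95, 1.51 and 4.5 CPM. The acute 24 h libraries held 167, 143 and 129.7 CPM, above every other library in the series. By acute 72 h Plaur was 10.4, 16.4, 7.79 and 10.9 CPM, and at acute 7 d it was 15.6, 19.3, 39.96 and 21.1 CPM. It was 52.3, 88.2, 72.6 and 95.7 CPM at chronic 24 h, 10.5, 14.0, 6.45 and 16.0 CPM at chronic 72 h and 11.6, 19.2, 12.4 and 11 CPM at chronic 14 d. No injured library fell within the healthy range, and the 4 groups later than 24 h overlapped with one another.

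The rise in Plaur from healthy was 5.95 ± 0.43 at acute 24 h, or 61.9-fold (edgeR adjusted p = 1.10e-09), and 5.03 ± 0.41 at chronic 24 h (edgeR adjusted p = 4.27e-09). The ranges at chronic and acute 24 h did not overlap, yet the difference of -0.93 ± 0.36 did not pass the test (edgeR adjusted p = 0.066). Plaur fell by 3.69 from acute 24 h to acute 72 h (SE 0.38, edgeR adjusted p = 5.44e-07) and by 2.72 from chronic 24 h to chronic 72 h (SE 0.36, edgeR adjusted p = 1.85e-05). It remained called against healthy at every later time, at 2.27 ± 0.37 to 3.34 ± 0.38, including 2.52 ± 0.38 at chronic 14 d (edgeR adjusted p = 0.000165).

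Serpine2, which encodes protease nexin-1 (chr1:79794197-79861180, minus strand, ENSMUSG00000026249), did not rise 24 h after the first injection and rose at later times. It was 4.07, 5.26, 8.08 and 4.93 CPM in healthy libraries and 6.85, 4.08 and 2.54 CPM at acute 24 h, and these groups overlapped. At acute 72 h the libraries held 12.3, 16.7, 44.9 and 62.7 CPM, and at acute 7 d 132, 105, 267 and 139 CPM. The 3 acute groups did not overlap with one another. Serpine2 was 105, 138, 397 and 321 CPM at chronic 24 h, 167, 148, 345 and 487 CPM at chronic 72 h and 69.7, 70.6, 86.1 and 66.5 CPM at chronic 14 d. At chronic 24 h and 72 h the first 2 replicates, which are of lower depth, held less than the other 2. The first 2 also held less than the other 2 at acute 72 h, where no library was under 9 M counts. What lay behind these splits was not tested.

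The difference of acute 24 h from healthy was -0.32 ± 0.57 (edgeR adjusted p = 0.714), whereas the rise reached 2.61 ± 0.53 at acute 72 h (edgeR adjusted p = 0.000949) and 4.84 ± 0.57 at acute 7 d (edgeR adjusted p = 2.70e-06). At chronic 24 h it was 5.42 ± 0.59 (edgeR adjusted p = 3.19e-07) and at chronic 72 h 5.68 ± 0.60, or 51.2-fold (edgeR adjusted p = 6.95e-07). Chronic exceeded acute 24 h by 5.74 ± 0.68, or 53.5-fold (edgeR adjusted p = 2.67e-06). In the libraries above 9 M counts alone the rise at chronic 24 h was 6.01 (edgeR adjusted p = 3.05e-06). Serpine2 was still 3.71 ± 0.55 above healthy at chronic 14 d (edgeR adjusted p = 0.000164; 5.19 with a term for depth class), and its fall from chronic 24 h was called at -1.71 ± 0.50 (edgeR adjusted p = 0.0149). With a term for depth class that fall was -0.77 (edgeR adjusted p = 0.235), and it was -1.36 and -1.49, not called, without chronic 24 h replicates 3 and 4.

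**Figure D2:**
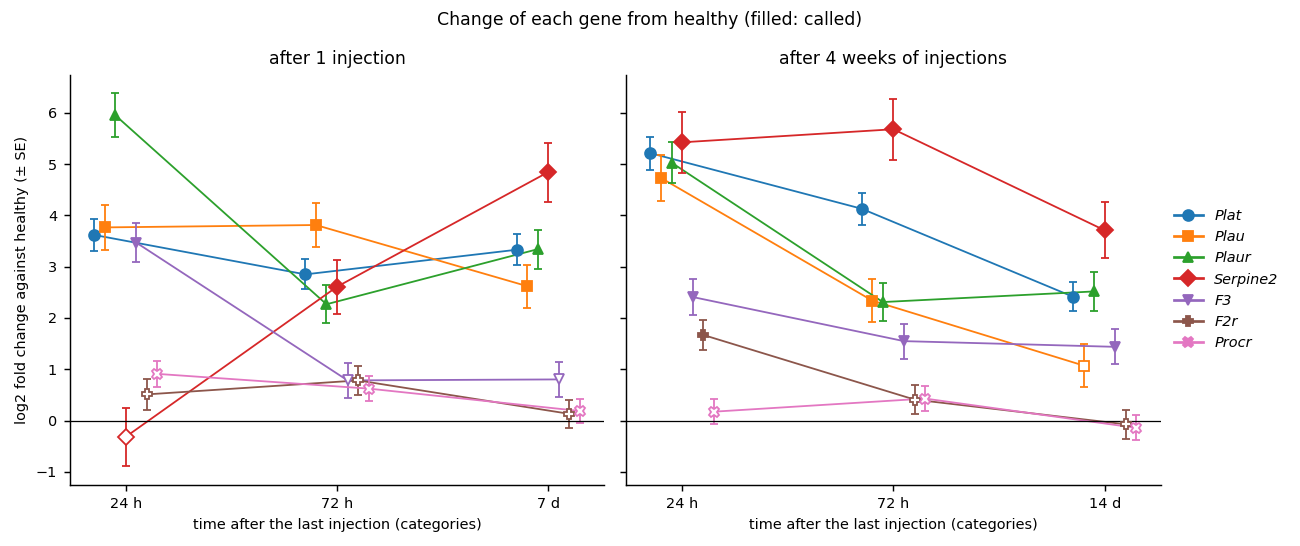
log2 fold change of each gene against healthy (± SE), after 1 injection on the left and after 4 weeks of injections on the right. Filled symbols passed the test and 2-fold. Plaur and F3 were highest at acute 24 h, while Serpine2 went from -0.32 at acute 24 h to 4.84 at acute 7 d and was at 5.42 and 5.68 at chronic 24 h and 72 h.

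F3, which encodes tissue factor (chr3:121723537-121735048, plus strand, ENSMUSG00000028128), rose early after the first injection and was also above healthy at each time after the chronic course. It was 10.8, 4.68, 12.9 and 10.1 CPM in healthy libraries and 141, 87.7 and 91.5 CPM at acute 24 h, above every other library. It was 7.87, 16.1, 16.9 and 25.4 CPM at acute 72 h and 15.2, 14.7, 18.3 and 19.0 CPM at acute 7 d. The chronic 24 h libraries held 34.3, 32.8, 66.1 and 71.0 CPM, those of chronic 72 h 24.9, 27.4, 36.2 and 24.1 CPM, and those of chronic 14 d 20.6, 34.3, 33.8 and 15.6 CPM. Acute 72 h overlapped with healthy, whereas acute 7 d and the 3 chronic groups did not.

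The rise in F3 was 3.47 ± 0.38 at acute 24 h, or 11.1-fold (edgeR adjusted p = 3.85e-07), and by acute 72 h it had fallen by 2.69 (SE 0.37, edgeR adjusted p = 1.16e-05). Against healthy it was then 0.78 ± 0.34 (edgeR adjusted p = 0.102), and 0.80 ± 0.34 at acute 7 d (edgeR adjusted p = 0.0908). After the chronic course it was called at 2.41 ± 0.35 at 24 h (edgeR adjusted p = 1.32e-05), 1.55 ± 0.34 at 72 h (edgeR adjusted p = 0.00233) and 1.44 ± 0.34 at 14 d (edgeR adjusted p = 0.00945; 2.06 with a term for depth class). Chronic 24 h was called lower than acute 24 h, at -1.06 ± 0.35 (edgeR adjusted p = 0.0339). That call was lost with a term for depth class (-0.83, edgeR adjusted p = 0.115), in the libraries above 9 M counts (-0.67, edgeR adjusted p = 0.289) and without acute 24 h replicate 1 (-0.81), chronic 24 h replicate 1 (-0.91) or chronic 24 h replicate 2 (-0.90).

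F2r, which encodes the thrombin receptor PAR1 (chr13:95601803-95618487, minus strand, ENSMUSG00000048376), was abundant in HSCs of every group, and against healthy it was called at chronic 24 h alone in the fit of all libraries. Healthy libraries held 701, 718, 768 and 1215 CPM and chronic 24 h libraries 1498, 1795, 3689.6 and 3832 CPM. Acute libraries ranged from 921 to 1402 CPM at 24 h, from 1248 to 1571 CPM at 72 h and from 828 to 987 CPM at 7 d. F2r was 863, 812, 1605 and 1237 CPM at chronic 72 h and 659, 589, 929.6 and 1056 CPM at chronic 14 d. The chronic 24 h replicates of lower depth, the first 2, held less than the other 2, and all 4 were above the healthy range.

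The rise in F2r at chronic 24 h was 1.67 ± 0.29, or 3.18-fold (edgeR adjusted p = 9.09e-05), and it was 2.15 in the libraries above 9 M counts (edgeR adjusted p = 4.00e-06). F2r then fell by 1.26 to chronic 72 h (SE 0.28, edgeR adjusted p = 0.00345) and by 1.74 to chronic 14 d (SE 0.29, edgeR adjusted p = 0.000117; -1.14 with a term for depth class), where it differed from healthy by -0.07 ± 0.28 (edgeR adjusted p = 0.921). With a term for depth class that difference was 0.90 (edgeR adjusted p = 0.0633). At chronic 72 h the difference from healthy was 0.41 ± 0.28 (edgeR adjusted p = 0.325). It was 0.85 with a term for depth class (edgeR adjusted p = 0.00856) and 0.77 in the libraries above 9 M counts (edgeR adjusted p = 0.0268). Both were under 2-fold. At acute 24 h the difference from healthy was 0.51 ± 0.30 (edgeR adjusted p = 0.2). At acute 72 h it was 0.78 ± 0.28, under 2-fold (edgeR adjusted p = 0.0473), and without healthy replicate 4 it was 1.00 and called (edgeR adjusted p = 0.0163). Chronic exceeded acute 24 h by 1.16 ± 0.31 (edgeR adjusted p = 0.00906). This was not called without acute 24 h replicate 2 (1.00, edgeR adjusted p = 0.0657), chronic 24 h replicate 3 (0.97) or chronic 24 h replicate 4 (0.88), nor in a fit of the 2 groups alone (1.15, edgeR adjusted p = 0.0603).

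Procr, which encodes the protein C receptor (chr2:155751117-155755471, plus strand, ENSMUSG00000027611), was called in 0 of the 11 comparisons with edgeR and also with DESeq2. Its unadjusted p was below 0.05 in 4 of them. It was 9.33, 11.1, 8.42 and 12.3 CPM in healthy libraries and 14.0, 22.7 and 21.3 CPM at acute 24 h, groups that did not overlap. That difference, 0.91 ± 0.26, passed the adjusted p (edgeR adjusted p = 0.00787) and was under 2-fold. It was 1.01 without healthy replicate 4 and 1.10 without acute 24 h replicate 1, and called in both cases. Procr ranged from 13 to 17.9 CPM at acute 72 h, from 7.70 to 16.3 CPM at acute 7 d and from 9.27 to 15.8 CPM at chronic 24 h, and from 11.4 to 16.7 CPM at chronic 72 h and 6.88 to 12.7 CPM at chronic 14 d.

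The order of the group means differed between the genes. Plat ran from chronic 24 h (843 CPM) through chronic 72 h, acute 24 h, acute 7 d, acute 72 h and chronic 14 d to healthy (22.8 CPM), a span of 37.1-fold, and only its first and its last step separated groups whose libraries did not overlap. Plau ran from chronic 24 h (60.2 CPM) through acute 72 h, acute 24 h, acute 7 d, chronic 72 h and chronic 14 d to healthy (2.26 CPM), and every step but the first was between groups that overlapped (the lowest of chronic 24 h and the highest of acute 72 h were both 36.7 CPM to 3 digits). Plaur had acute 24 h (147 CPM) and chronic 24 h (77.2 CPM) first, each apart from the next lower group. It then ran through acute 7 d, chronic 14 d, chronic 72 h and acute 72 h, which overlapped, to healthy (2.35 CPM), which stood apart. Serpine2 ran from chronic 72 h (287 CPM) and chronic 24 h to acute 7 d, which overlapped, and then through chronic 14 d and acute 72 h to healthy (5.59 CPM), each step without overlap, with acute 24 h lowest (4.49 CPM) and overlapping with healthy. F3 had acute 24 h first (107 CPM) and apart from the rest, and each further step down to healthy (9.61 CPM) was between groups that overlapped. For F2r (809 to 2704 CPM) and Procr (9.31 to 19.3 CPM) all neighbours in the order overlapped.

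Levels of different genes were compared per kb of exon (union of annotated exons). In healthy HSCs, F2r had 255 CPM per kb, Procr 5.06, F3 3.80, Plat 3.65, Plau 0.955, Plaur 0.899 and Serpine2 0.674 CPM per kb. At acute 24 h the order of the others below F2r was Plaur (56.1 CPM per kb), Plat (44.8), F3 (42.2), Plau (13), Procr (9.52) and Serpine2 (0.542 CPM per kb). At chronic 24 h it was Plat (135 CPM per kb), Plaur (29.5), Serpine2 (29.0), Plau (25.4), F3 (20.2) and Procr (5.72 CPM per kb). Plat thus had the higher level of the 2 activator genes there, and Serpine2 went from the lowest of the 7 genes in healthy and acute 24 h HSCs to a level like that of Plaur. The per-length levels of Plat and Serpine2 at chronic 72 h were 63.8 and 34.6 CPM per kb, against 4.84 CPM per kb for Plau.

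**Figure D3:**
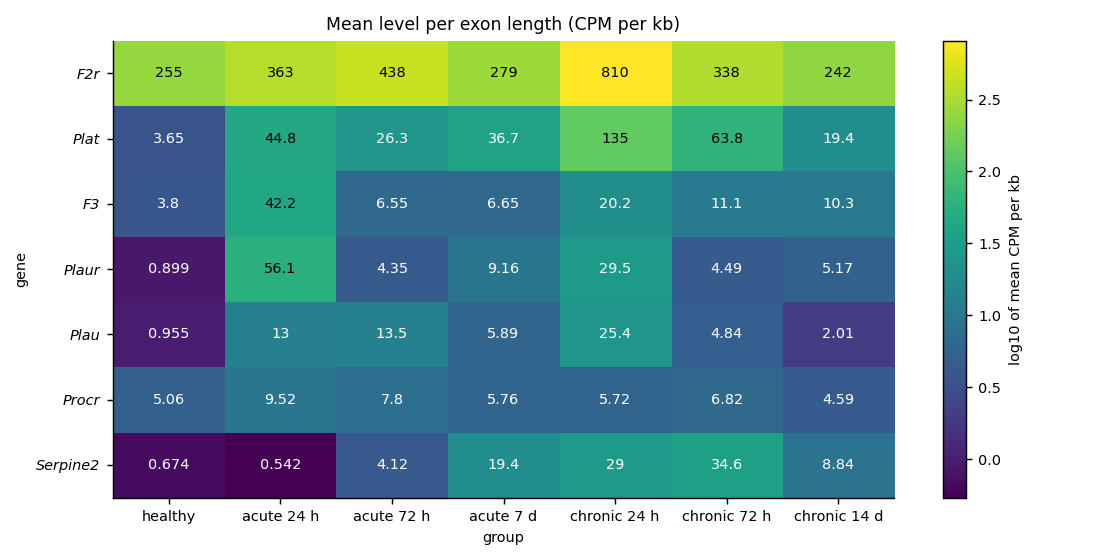
Mean level of the 7 genes in each group, in CPM per kb of exon, with the value printed in each cell and the color on a log10 scale. F2r led in every group (242 to 810 CPM per kb), and Serpine2 rose from 0.542 CPM per kb at acute 24 h to 29.0 CPM per kb at chronic 24 h.

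Against healthy, 6 of the 7 genes were called at chronic 24 h, all of them higher, where 11.2% of all tested genes were called higher and 8.11% lower. Procr was the gene not called. At chronic 72 h, 5 were called, all higher (Plat, Plau, Plaur, Serpine2 and F3), against 7.88% of all genes higher and 4.2% lower. At chronic 14 d, 4 were called, all higher (Plat, Plaur, Serpine2 and F3), against 4.55% higher and 1.17% lower. At acute 24 h, 4 were called, all higher (Plat, Plau, Plaur and F3), against 9.41% higher and 12.5% lower. At acute 72 h, 4 were called, all higher (Plat, Plau, Plaur and Serpine2), against 8.23% higher and 4.33% lower. The same 4 were called higher at acute 7 d, against 9.23% higher and 5.64% lower. The median change over the 7 genes was 4.73 at chronic 24 h and 3.47 at acute 24 h on the log2 scale, against -0.03 and -0.12 over all genes. These 6 comparisons share the 4 healthy libraries.

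Within the chronic course, 4 genes were called at 72 h against 24 h, all lower (Plat, Plau, Plaur and F2r), where 3.65% of all genes were called lower and 4.72% higher. At chronic 14 d, 5 were called against chronic 24 h, all lower (the same 4 and Serpine2), against 6.11% of all genes lower and 6.65% higher. F3 missed 2-fold there (-0.97 ± 0.34, edgeR adjusted p = 0.0387). Within the acute course, 2 genes were lower at 72 h than at 24 h (Plaur and F3) and 1 was higher (Serpine2), against 3.76% of all genes lower and 11.2% higher. At acute 7 d, 3 were lower than at acute 24 h (Plau, Plaur and F3) and 1 was higher (Serpine2), against 9.24% lower and 17.8% higher. Serpine2 rose from acute 24 h by 2.93 ± 0.60 to acute 72 h (edgeR adjusted p = 0.000968) and by 5.16 ± 0.66 to acute 7 d (edgeR adjusted p = 2.66e-06).

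Chronic and acute HSCs at the same 24 h after the last injection differed in 4 of the 7 genes. Plat, Serpine2 and F2r were called higher after the chronic course, where 10.9% of all genes were, and F3 was called lower, where 3.05% were. The differences in Plat and Serpine2 were called in all 7 fits that left out 1 library. The mice also differed in age and in the number of injections, which cannot be told apart here.

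Of 9 other genes of plasminogen activation tested, 4 were called at chronic 24 h, all higher, where 11.2% of all genes were called higher. The median was -0.17 on the log2 scale, against -0.03 over all genes. Serpinb2, which encodes a serpin that inhibits urokinase, had no count in the 4 healthy libraries and 3.87 ± 0.947 CPM (SD, n = 4) at chronic 24 h, at least 57.8-fold higher than a floor of 3 counts over the healthy group. It was at least 55.8-fold higher at acute 7 d, 24.6-fold at acute 24 h, 21.3-fold at chronic 14 d and 15.9-fold at chronic 72 h, and at acute 72 h at least 6.67-fold. Serpinb2 averaged only 0.447 CPM at acute 72 h, with a range of 0 to 0.708 CPM. At acute 7 d, the group with the highest macrophage sum, it averaged 3.74 CPM. The part of macrophage RNA in Serpinb2 was not tested. Tfpi2, which encodes an inhibitor of plasmin and other serine proteases, rose by 2.35 ± 0.39 at chronic 24 h (edgeR adjusted p = 7.05e-05), and Mrc2, the endocytic collagen receptor that associates with uPAR, by 1.51 ± 0.22 (edgeR adjusted p = 1.03e-05). Serpini1, which encodes neuroserpin, an inhibitor of tPA, was called higher at chronic 24 h and at acute 72 h (1.73 ± 0.25, edgeR adjusted p = 2.4e-05).

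At acute 24 h, 1 gene of this list was called higher (Serpinb2) and 2 lower, against 9.41% of all genes higher and 12.5% lower. The 2 lower genes were Plgrkt, which encodes a plasminogen receptor (-1.08 ± 0.15, edgeR adjusted p = 1.08e-05), and Igf2r, which encodes a receptor that also binds uPAR (-1.47 ± 0.26, edgeR adjusted p = 0.000145). At acute 72 h, 3 were called, all higher (Serpinb2, Serpini1 and Tfpi2, the last at 1.99 ± 0.39, edgeR adjusted p = 0.00068), against 8.23% of all genes higher. At acute 7 d, chronic 72 h and chronic 14 d, Serpinb2 and Tfpi2 were higher and 1 gene was lower each time. The shares of all genes called higher were 9.23%, 7.88% and 4.55% in that order, and those called lower 5.64%, 4.2% and 1.17%. The Tfpi2 value at these times was 2.12, 1.90 and 1.38. Lrp1, the receptor that clears complexes of protease and serpin, was called lower at acute 7 d (-1.20 ± 0.35, edgeR adjusted p = 0.015) and at chronic 14 d (-1.11 ± 0.35, edgeR adjusted p = 0.049). Its libraries there, at 536 to 893 CPM and 582 to 853 CPM, all lay within the healthy range of 524 to 2078 CPM. Igf2r was called lower at chronic 72 h (-1.09 ± 0.24, edgeR adjusted p = 0.00191), where its range overlapped with healthy. Between chronic and acute 24 h, 2 of the 9 were called, both higher, where 10.9% of all genes were called higher. The 2 were Mrc2 (1.88 ± 0.24, edgeR adjusted p = 7.17e-06) and Tfpi2 (1.38 ± 0.42, edgeR adjusted p = 0.0197). The median of the list was between -0.17 and 0.85 in the 6 comparisons against healthy.

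**Figure D4:**
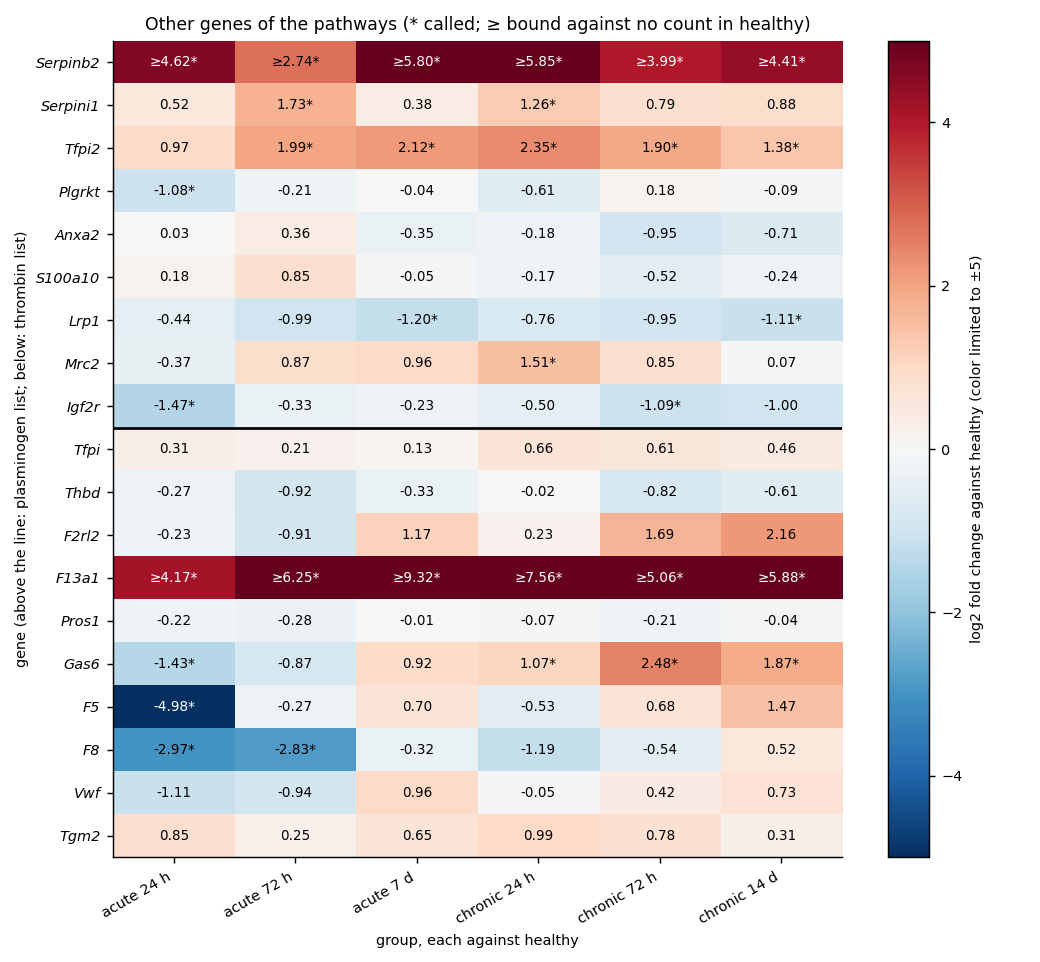
log2 fold change against healthy of the 19 other genes tested in the plasminogen list (above the line) and the thrombin list (below it), in 6 groups. Stars mark called genes and ≥ marks a bound where no healthy library had a count. Serpinb2 and F13a1 were called higher in all 6 groups, and F8 was called lower at acute 24 h and acute 72 h.

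Of 12 genes around thrombin, tissue factor and protein C, 10 had enough counts to test (F2rl1 and F2rl3, which encode other protease-activated receptors, did not). At chronic 24 h, 2 were called, both higher, where 11.2% of all genes were called higher, and the median of the list was 0.11. The first was F13a1, the fibrin-crosslinking factor XIII subunit, which macrophages also express. It had no count in healthy libraries, was at least 189-fold higher than the same floor at chronic 24 h, where it held 12.7 ± 8.88 CPM (SD, n = 4), and at least 641-fold higher at acute 7 d, the group with the highest macrophage sum. The bound was 76.3-fold at acute 72 h, 58.9-fold at chronic 14 d, 33.2-fold at chronic 72 h and 17.9-fold at acute 24 h. The part of macrophage RNA in F13a1 was not tested. The second was Gas6, a vitamin K-dependent ligand of TAM receptors (1.07 ± 0.37, edgeR adjusted p = 0.0315), which was highest at chronic 72 h (2.48 ± 0.39, edgeR adjusted p = 7.49e-05) and lower than healthy at acute 24 h (-1.43 ± 0.42, edgeR adjusted p = 0.00988). Tfpi, which encodes the inhibitor of the tissue factor pathway, and Thbd, which encodes thrombomodulin, were not called in any comparison against healthy, and nor was Pros1, which encodes protein S.

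At acute 24 h, 1 gene of this list was called higher (F13a1) and 3 lower (F5, F8 and Gas6), against 9.41% of all genes higher and 12.5% lower. F5, which encodes factor V, was at -4.98 ± 0.76 (edgeR adjusted p = 2.43e-05), and F8, which encodes factor VIII, at -2.97 ± 0.57 (edgeR adjusted p = 0.000294). F5 averaged 9.56 CPM in healthy libraries and 0.292 CPM at acute 24 h, where 8 of 10 hepatocyte markers were also called lower. The part of hepatocyte RNA in F5 was not tested, here or between chronic and acute 24 h. At acute 72 h, F13a1 was higher and F8 lower (-2.83 ± 0.50, edgeR adjusted p = 0.00028), against 8.23% of all genes higher and 4.33% lower. Markers of sinusoidal endothelium, cells that make factor VIII, moved with F8 in part. Of 10, 6 were called lower and 1 higher at acute 24 h and 9 lower at acute 72 h. They summed to 198 to 594 CPM in healthy libraries, 203 to 255 CPM at acute 24 h, within the healthy range, and 64.5 to 189 CPM at acute 72 h. At chronic 24 h 6 of the 10 were called lower, while F8 was not called. The part of endothelial RNA in F8 was not tested. F13a1 alone was called at acute 7 d, and at chronic 72 h and 14 d F13a1 and Gas6 were called higher, Gas6 by 1.87 ± 0.38 at 14 d (edgeR adjusted p = 0.00298). The shares of all genes called higher in these groups were 9.23%, 7.88% and 4.55%. Between chronic and acute 24 h, 4 of the 10 were called, all higher, where 10.9% of all genes were called higher. The 4 were F5 (4.45 ± 0.76, edgeR adjusted p = 0.000176), F13a1 (3.37 ± 0.64), Gas6 (2.51 ± 0.44) and F8 (1.79 ± 0.55).

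Plasma proteins of clotting and fibrinolysis that the hepatocyte makes, 19 genes from Plg and F2 to fibrinogen, were also counted in the sorted cells. All 19 were called lower at acute 24 h, where 12.5% of all genes were called lower. Their median was -4.43 on the log2 scale (-4.40 with F11 and Klkb1, which had no count there, set at their bound). Klkb1 was at least 68.2-fold and F11 at least 12.9-fold lower, and Serpinf2, which encodes the plasmin inhibitor antiplasmin, was at -5.18 ± 0.91 (edgeR adjusted p = 0.00012). At acute 7 d 1 was called, F7, which encodes factor VII, higher by 1.87 ± 0.59 (edgeR adjusted p = 0.0229), against 9.23% of all genes higher. With edgeR 0 of the 19 were called against healthy at acute 72 h, where 1 had an unadjusted p below 0.05, nor at chronic 24 h (2), 72 h (0) or 14 d (11, all higher). Between chronic and acute 24 h, 18 of the 19 were called, all higher, against 10.9% of all genes. Plg, plasminogen itself, averaged 20.5 ± 23.9 CPM in the 4 healthy libraries (mean ± SD), 0.700 ± 0.864 CPM in the 3 of acute 24 h and 12.2 ± 6.57 CPM in the 4 of chronic 24 h. The 10 hepatocyte markers moved likewise at acute 24 h, with 8 called lower, among them Alb (361 CPM in healthy and 31.0 CPM at acute 24 h). The part of hepatocyte RNA in these values was not tested. Plat, Plau, Plaur and F3 were higher at acute 24 h, where the sum of the hepatocyte markers was lowest (58.9 to 257 CPM). The part of hepatocyte RNA in these 4 genes was not tested either.

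Some values of the 7 genes moved with markers of other cells. The summed macrophage list lay at 174 to 252 CPM at acute 24 h and at 178 to 731 CPM in healthy libraries, and 1 of its 12 genes was called higher and 2 lower there. The neutrophil list of 7 genes summed to 0.390 to 2.17 CPM in healthy libraries, to 4.3 to 18.7 CPM at acute 24 h and to at most 52.1 CPM in any library. Of the 6 neutrophil genes tested, 4 were called higher at acute 24 h, while Ly6g, which was not tested, had no count in healthy or acute 24 h libraries. At acute 7 d the macrophage sum ran from 4172 to 10962 CPM, and its highest library, replicate 3, was also the highest of its group for Plau (24.0 CPM) and Plaur (39.96 CPM). At chronic 24 h the sum was 2812, 3940, 586 and 1237 CPM in replicates 1 to 4. In the same order Plau was 36.7, 91.6, 71.1 and 41.5 CPM, and Plaur 52.3, 88.2, 72.6 and 95.7 CPM. After subtraction of group means, correlations with the macrophage sum over 27 libraries were 0.52 for Plaur, 0.47 for Procr and 0.34 for Plau. They were 0.07 for Plat, -0.08 for F3, -0.35 for Serpine2 and -0.50 for F2r. The part of macrophage and neutrophil RNA in the values of Plau, Plaur and F3 was not tested at any of these times.

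Serpine2 moved with the list of 8 mesothelial and portal fibroblast markers, which summed to 103 to 165 CPM in healthy libraries, 46.6 to 83.1 CPM at acute 24 h, 493 to 563 CPM at acute 7 d and 365 to 604 CPM at chronic 24 h. Most of that sum came from Eln, Fbln2 and Cd34, at means of 193, 205 and 87.2 CPM at chronic 24 h. Of the 7 genes of the list that were tested, 3 were called higher and 0 lower at chronic 24 h against healthy. Msln, which was not tested, had a mean of 0.146 CPM there, with 0 in 3 of the 4 libraries. Upk3b had 2.27 CPM and Thy1 6.18 CPM. After subtraction of group means, the correlation of Serpine2 with this sum was 0.84 over 27 libraries, which share their depth classes. The part of such cells in the Serpine2 level was not tested.

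**Figure D5:**
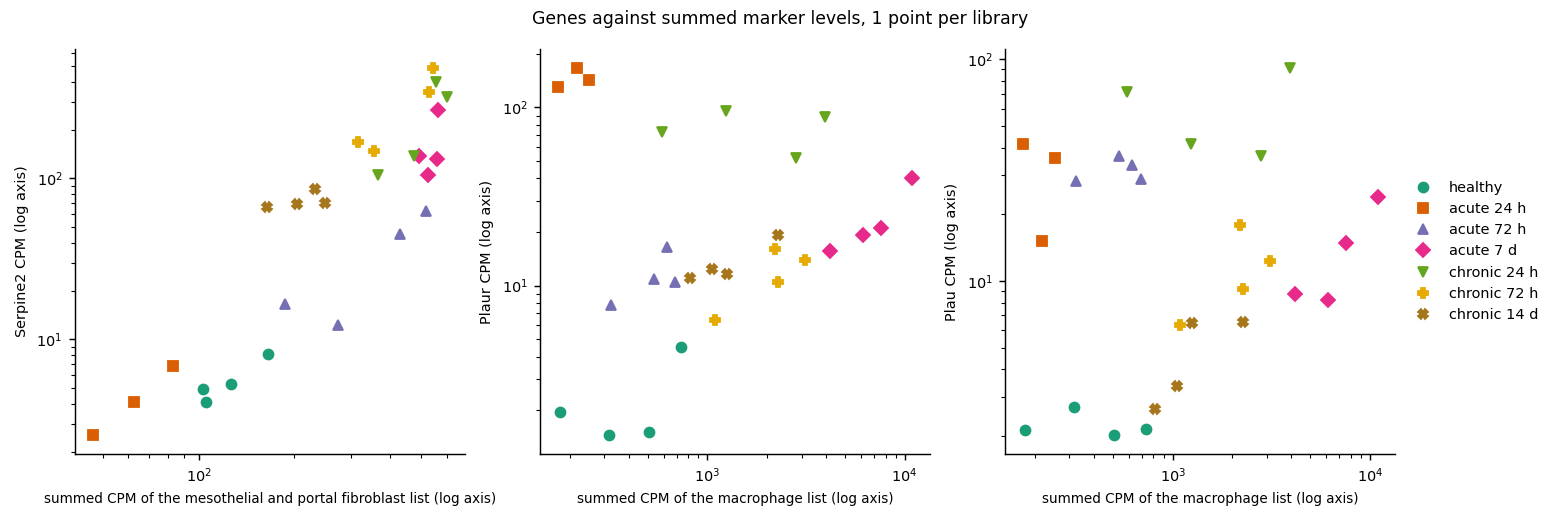
Serpine2 against the summed mesothelial and portal fibroblast markers, and Plaur and Plau against the summed macrophage markers, in CPM on log axes with 1 point per library and a symbol per group. The acute 24 h libraries are highest for Plaur at macrophage sums of 174 to 252 CPM, and the acute 7 d libraries have the highest sums, at 4172 to 10962 CPM.

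The genes whose level ran most like each of the 7 over the 27 libraries were found by Pearson's r of log2 CPM among 10291 genes whose log2 CPM averaged 3 or more, as a description. For Plat they were Pim1 (r = 0.96), Nr4a2 (0.95) and Mmp19 (0.94), a kinase, a nuclear receptor of the immediate early kind and a matrix metalloproteinase. For Plau they were the chemokine gene Ccl7 (0.93), Nek6 (0.93) and Gm4366 (0.92), and for Plaur Serpina3n (0.93), Cxcl14 (0.93) and Arpc5 (0.91). For Serpine2 they were Dpt, which encodes the matrix protein dermatopontin (0.97), Ncam1 (0.94) and the mesenchymal transcription factor gene Prrx1 (0.94). F3 had lower values, with Gcnt2 (0.87), Tmem238 (0.84) and Crispld2 (0.84). For F2r they were Ext1 (0.91), Abce1 (0.89) and Mark1 (0.88), and for Procr Maff (0.82), Nfkbia (0.79) and Id3 (0.78). The libraries share groups and depth.

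Among the 7 genes themselves, the closest pair over the 27 libraries was Plaur and F3 (r = 0.83), and after subtraction of group means their r was 0.12. Plat and Plau had an r of 0.78 over all libraries and 0.19 within groups. Serpine2 and Plaur had an r of 0.18 over all libraries. The highest value within groups was that of Plau and Procr, at 0.66, and the next that of Serpine2 and F3, at 0.62, the latter with lower values of both genes in the chronic 24 h libraries of lower depth.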

How the data were processed

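Per the labels and the study's methods, single-end 75-base reads of 27 libraries were checked with FastQC, aligned to GRCm38.p6 with STAR and quantified with StringTie. The deposited table holds raw read counts per Ensembl gene, which were used as deposited. Tool versions, the annotation, strand use and how counts were derived are not given in the sources used here. Of the 53379 genes, 53274 had a symbol in the deposited table or the reference gene table.

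Counts were fitted with edgeR 4.0.16 in R 4.3.3 (filterByExpr by group, TMM factors, robust glmQLFit and glmQLFTest), with 1 mean per group and 1 spread over the 27 libraries. Genes were called at an adjusted p below 0.05 and over 2-fold. CPM used TMM-scaled library sizes, log2 CPM a prior count of 2, and levels between genes were divided by GENCODE M21 exon length. The scripts were tested on simulated data. Alternatives were DESeq2 1.42.0 and its size factors, library size alone, other filters and thresholds, the 2 groups alone, a replicate block, depth class (9 M counts) and each library left out. Every pair of libraries of a group differed by more than counting noise (chi-square per degree of freedom of at least 15.5). Whether a library pooled mice is not given in the sources used here, and p-values measure the spread between libraries.

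Named were all 7 genes everywhere, and up to 3 called genes per pathway list with the largest change against healthy and in chronic against acute 24 h. Tfpi, Thbd, Pros1, Plg, Lrp1, and at single times Serpini1, Igf2r, Gas6 and F8, were named after their values were seen. A gene of the plasminogen list is not reported here and was left out of its counts. The genes and lists were chosen with earlier results of these data known. Motifs were searched on both strands of RefSeq promoters. AP-1 is TGANTCA, CRE TGACGTCA, TEAD GGAATG, Sp1 GGGCGG and Egr GCGNGGGCG, and GGGCGG and GCGNGGGCG can overlap. No AP-1, CRE or TEAD match was found in the Serpine2 window, and no CRE or TEAD match in the other 4 promoters.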

Additional observations from a re-analysis of the deposited data

Results flagged for a closer look

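In 3 of the 42 groups of 4 libraries tested (7 genes in 6 groups), 1 library stood far from the other 3 by Dixon's test, which chance alone does in about 1 in 20 groups. Plaur was 4.5 CPM in healthy replicate 4, against 1.45 to 1.95 CPM in the other healthy libraries. That library also had the highest macrophage sum (731 CPM) and hepatocyte sum (2656 CPM) of its group. F2r was 1215 CPM in the same library, against 701 to 768 CPM in the others. Plaur was 19.2 CPM in chronic 14 d replicate 2, against 11 to 12.4 CPM in the others. The macrophage sum (2271 CPM) and the hepatocyte sum (6142 CPM) were highest there too. The part of macrophage or hepatocyte RNA in these values was not tested. Leaving out healthy replicate 4 raised the F2r value at chronic 24 h against healthy from 1.67 to 1.89 on the log2 scale.

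For 4 genes, the change from healthy at chronic 24 h differed from that at acute 24 h by edgeR's quasi-likelihood test of the difference. The difference was 1.59 on the log2 scale for Plat (edgeR adjusted p = 0.00061), with the 4 chronic libraries above the 3 acute ones. For Serpine2 it was 5.74 (edgeR adjusted p = 2.67e-06), again with all 4 chronic libraries above the 3 acute ones. For F2r it was 1.16 (edgeR adjusted p = 0.00906), with all 4 chronic libraries higher, and for F3 -1.06 (edgeR adjusted p = 0.0339), with all 4 lower. The F2r and F3 calls did not hold in every fit, as given with their values in the report.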

How the results depend on the processing

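The count of genes called among the 7 stayed within 1.5 times its value in every comparison and alternative run but 1. That exception was chronic against acute 24 h, where 4 were called in the fit of all libraries and 2 with the 2 groups alone, F3 and F2r being lost. Of the refitted log2 changes of single genes, 1365 kept their direction and their side of the threshold, 24 lost a call, 15 gained one and 17 changed sign. The sign changes were all in values that were not called. With library size alone F2r and Procr at chronic 14 d against healthy were 0.12 and 0.032, and F2r was 0.90 with a depth term and 0.0031 with the 2 groups alone. Plau at acute 72 h against acute 24 h was -0.024 without a filter, -0.0013 in libraries above 9 M counts and -0.0074 with the 2 groups alone. Procr at chronic 24 h against healthy was -0.015 in libraries above 9 M counts. With single libraries left out, F2r at chronic 14 d against healthy ran from -0.18 to 0.15 (0.15 without healthy replicate 4, 0.013 and 0.052 without chronic 14 d replicates 1 and 2), and Plau at acute 72 h against acute 24 h ran from -0.28 (without acute 24 h replicate 1) to 0.33 and was -0.081 without acute 72 h replicate 4. Likewise Procr ran from -0.0074 (without chronic 24 h replicate 2) to 0.27 at chronic 24 h and from -0.016 (without acute 7 d replicate 4) to 0.34 at acute 7 d, Plat at acute 7 d against acute 24 h from -0.48 to 0.058 (without acute 24 h replicate 1), and Serpine2 at chronic 72 h against chronic 24 h from -0.13 (without chronic 72 h replicate 4) to 0.61. The cause was not tested.

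Calls lost or gained outside those given in the report were Plau at acute 7 d against acute 24 h with the 2 groups alone (-1.13, edgeR adjusted p = 0.0793), F3 at chronic against acute 24 h likewise (-1.07, edgeR adjusted p = 0.0501), and Plat at chronic 72 h against chronic 24 h with library size alone (-0.98). F3 was gained at chronic 14 d against chronic 24 h without chronic 24 h replicate 1 (-1.12) or 2 (-1.13) or chronic 14 d replicate 2 (-1.13) or 3 (-1.06), at chronic 72 h against chronic 24 h without chronic 24 h replicate 1 (-1.01) and at acute 72 h against healthy without acute 72 h replicate 1 (1.01). Without a fold minimum Procr was gained at acute 7 d against acute 24 h (-0.72, edgeR adjusted p = 0.0272) and at chronic against acute 24 h (-0.74, edgeR adjusted p = 0.0426). Same-numbered libraries did not deviate together in every pair of any comparison, so replicate numbers were not taken as pairs. With a replicate block, at chronic against acute 24 h Plaur was gained (-1.06, edgeR adjusted p = 0.0326) and F2r fell just under 2-fold (0.97), and it changed no other call.

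Over all genes, the calls at chronic 14 d against healthy depended most on the setting. The fit of all libraries called 854 higher and 219 lower. It was 426 higher with a depth term and 500 higher and 122 lower with the 2 groups alone, and 107 lower with library size alone, 143 without a filter and 338 at an adjusted p below 0.1. With 1 library left out, the genes called lower ran from 106 (without chronic 14 d replicate 3) to 437 (without healthy replicate 4). Without a fold minimum, counts rose by over 1.5 times in 15 of the 22 lists of calls (chronic 24 h against healthy: 3201 higher and 2617 lower, from 2095 and 1522). Library size alone moved the median log2 change of all genes at chronic 14 d from -0.03 to 0.15 against healthy and from 0.0061 to 0.18 against chronic 24 h. The share of higher calls went from 79.6% to 91.1% at chronic 14 d against healthy, from 56.4% to 67.1% at chronic 72 h and from 52.1% to 67.1% at chronic 14 d against chronic 24 h. No fit of libraries above 9 M counts could be made for chronic 14 d, which has none.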
